A study of Mus musculus with 18 samples.

Results

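The sites described here are places in gene deserts where Tbx5 in the forelimb bud and Pitx1 in the hindlimb bud were mapped within 200 bp of each other. A deposited Tbx5 summit, the highest point of a called peak, was taken when a Pitx1 summit lay within 200 bp and when it lay over 100 kb from the body of any protein-coding gene. The rule found 1021 summits among the 10273 of the Tbx5 list, each with a Pitx1 partner of its own. The calls of the lists chose the sites, so their numbers and scores below are descriptions and carry no test.

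Tbx5 is a T-box transcription factor that the forelimb needs to grow out, and Pitx1 is a homeodomain transcription factor of the hindlimb that gives it its identity. A gene desert is a long stretch without protein-coding genes, and many hold enhancers, DNA elements that raise the transcription of a gene from a distance. Genes that shape the limb often lie beside such deserts and are known to be driven from them in both limbs.

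Binding was measured by chromatin immunoprecipitation and sequencing in wild-type embryos of the CD1 mouse, an outbred strain. Tbx5 was pulled down from forelimb buds at e10.5 and Pitx1 from hindlimb buds at e11.5, each with a homemade antibody and paired-end reads. Of the 18 samples in the series, only these 2 are used here. Each factor is 1 sample, so no value has a replicate error, and limb, stage, antibody and factor differ together between the lists. Read depth is unknown, and a peak list holds no expression values by which the labelled tissue could be checked. The score of a summit is the authors' −log10 of the peak's q-value. It ranks peaks within a list, and a Tbx5 score and a Pitx1 score are not on a common scale.

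The sequence under most of these sites was not read, since no genome was used here. For 5 of the 1021, both summits fell within the 300 bases around a start of a long non-coding RNA (250 bases before it and 50 after) that RefSeq gives for GRCm38.p6, the assembly that mm10 represents. The 3 with the highest Tbx5 scores are shown because they let the base that carries each summit be seen. Each runs 5′ to 3′ along the strand of the RNA, and the capitals mark the stretch from the summit of the one factor to that of the other.
Gm31344: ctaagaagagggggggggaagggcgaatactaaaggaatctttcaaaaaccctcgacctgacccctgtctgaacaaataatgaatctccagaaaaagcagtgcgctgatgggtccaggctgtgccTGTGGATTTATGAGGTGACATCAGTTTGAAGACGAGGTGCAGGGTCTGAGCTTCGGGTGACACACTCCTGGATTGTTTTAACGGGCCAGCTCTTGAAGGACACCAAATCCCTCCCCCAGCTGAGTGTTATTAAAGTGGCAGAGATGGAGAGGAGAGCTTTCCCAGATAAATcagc
Gm39767: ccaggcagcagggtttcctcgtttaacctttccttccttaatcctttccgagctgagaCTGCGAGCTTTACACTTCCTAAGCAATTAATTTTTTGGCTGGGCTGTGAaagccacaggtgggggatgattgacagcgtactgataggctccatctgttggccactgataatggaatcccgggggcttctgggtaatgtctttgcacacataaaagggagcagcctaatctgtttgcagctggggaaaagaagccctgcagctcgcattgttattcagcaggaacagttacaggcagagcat
Gm35551: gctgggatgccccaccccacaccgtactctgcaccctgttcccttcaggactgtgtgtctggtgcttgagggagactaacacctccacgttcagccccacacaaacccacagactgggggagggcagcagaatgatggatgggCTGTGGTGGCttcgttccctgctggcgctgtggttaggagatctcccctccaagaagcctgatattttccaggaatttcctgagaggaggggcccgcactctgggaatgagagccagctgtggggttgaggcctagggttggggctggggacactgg
The first window is chr1:73363656-73363955 on the plus strand, in the desert between Tnp1 and Tns1. Its Tbx5 summit (score 298) is at base 126 of the window and its Pitx1 summit (score 190) at base 296, which is 170 bp away. The second is chr2:21964118-21964417 on the minus strand, between Gpr158 and Myo3a, with the Tbx5 summit (7.64) at base 107 and the Pitx1 summit (28.1) at base 59. The third is chr17:84044537-84044836 on the minus strand, between Haao and Zfp36l2, with the Tbx5 summit (6.40) at base 153 and the Pitx1 summit (10.9) at base 144.

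These windows were searched on both strands for AGGTGT, a T-box motif, and TAATCC, a Pitx motif. The window of Gm35551 held AGGTGT once, read on the other strand from base 79, and that of Gm39767 held TAATCC once, from base 39. The window of Gm31344 held neither of these words. Its capitals hold the shorter AGGTG, which is part of the T-box word, at bases 138 and 160, the first of them 12 bases after the Tbx5 summit. AGGTG also stood at base 115 of the window of Gm39767 and within the AGGTGT of Gm35551, and TAATC, part of the Pitx word, stood at base 224 of the window of Gm39767, apart from the match at base 39. AGGTGT occurs in 13.7% and TAATCC in 7.06% of all 32851 RefSeq promoter windows of this length, with AGGTG in 51.9% and TAATC in 22.0%. The other members found inside such a window were those of Mir99ahg, which held no match, and Gm10637, which held TAATCC from base 56, AGGTG from base 138 and TAATC also from bases 119 and 212.

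Sharing was slightly more frequent in the deserts than elsewhere. Of 2355 Tbx5 summits in deserts, the 1021 shared ones are 43.4% (exact Clopper-Pearson 95% interval 41.3 to 45.4). Among the 7918 Tbx5 summits inside genes or within 100 kb of them, 3041 or 38.4% (37.3 to 39.5) were shared, and 39.5% of the whole Tbx5 list. Seen from Pitx1, 10.1% of the 10153 desert summits had a Tbx5 summit within 200 bp, against 7.39% of the whole Pitx1 list. These intervals cover the counting of summits and no other error.

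The Pitx1 summit lay a median of 59 bp from the Tbx5 summit in the shared desert sites (quartiles 27 and 101 bp), against 60 bp in the shared sites near or in genes. Of the 1021 sites, 447 or 43.8% had the summits within 50 bp of each other, and at 6 sites they fell on the same base. The Pitx1 summit had the lower coordinate at 523 sites and the higher one at 492, so neither side prevailed. The limit of 200 bp cut through a thinning edge, with 16 desert Tbx5 summits 191 to 200 bp from a Pitx1 summit and 14 at 201 to 210 bp. Just inside it lay a site between Slc25a13 and Sem1 (200 bp apart, Tbx5 score 13.9, Pitx1 score 3.35), and just outside it a site between Gm36448 and Dad1 (201 bp, 3.60 and 18.1). At the limit of 100 kb, the innermost member was 100.2 kb from Kbtbd8 (Tbx5 score 21.1, Pitx1 score 7.67), and the first shared summit left out was 99.9 kb from a gene, between Cfap20dc and Fhit (13.9 and 18.9).

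The members were spread over 430 of the 1689 deserts (25.5%), where a desert is the stretch between neighbouring protein-coding genes less 100 kb at each side. One further member lay beyond the outermost gene of its chromosome. A single member was found in 214 deserts and a pair in 83, while 133 deserts (7.87% of all) held 3 or more and together 640 members. The 15 deserts with most members held 158 of them, 15.5% of the members in 2.47% of the desert length. The same 15 held 8.85% of the desert Pitx1 summits. In these deserts 59.8% of the Tbx5 summits were shared, but they were chosen for their number of shared summits, so this share describes them and no more.

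**Figure D1:**
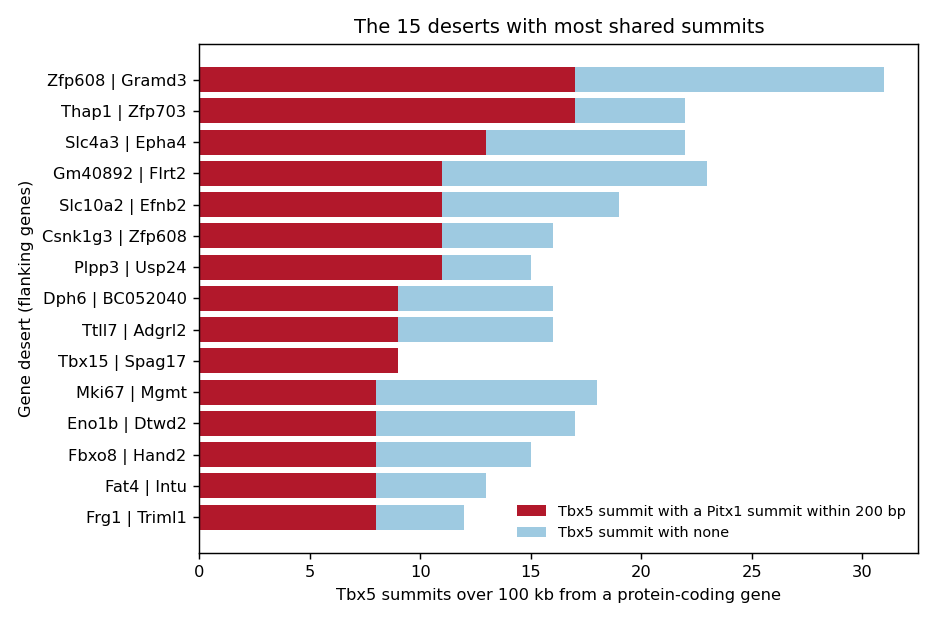
The horizontal axis counts Tbx5 summits over 100 kb from a protein-coding gene in each of the 15 deserts with most shared summits, named by the genes on both flanks. The dark part of a bar is shared with Pitx1 within 200 bp and the light part is not. Zfp608 to Gramd3 and Thap1 to Zfp703 hold 17 shared summits each, and the bar of Tbx15 to Spag17 has no light part.

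Zfp608, which encodes a zinc finger protein, had the most shared sites around it. The desert between Zfp608 and Gramd3 (chromosome 18, 54992592 to 56387484) held 17 members among 31 Tbx5 and 89 Pitx1 summits. Their Tbx5 scores ran from 2.61 to 43.7 with a median of 15.4, and their Pitx1 scores from 2.89 to 395 with a median of 47.2. The desert on the other side, between Csnk1g3 and Zfp608 (53955685 to 54888044), held 11 members among 16 Tbx5 and 62 Pitx1 summits. Here the Tbx5 scores reached 145, at position 54121851, and the Pitx1 scores reached 185. Together these deserts gave Zfp608 28 members on its flanks, with the highest Pitx1 scores on the Gramd3 side and the highest Tbx5 score on the Csnk1g3 side.

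The desert between Thap1, which encodes a DNA-binding protein, and Zfp703, a zinc finger co-repressor gene, held as many members in 613 kb of desert, against 1195 kb between Zfp608 and Gramd3 (chromosome 8, 26164152 to 26977335). Of its 22 Tbx5 summits, 17 were shared, and it held 47 Pitx1 summits. The Tbx5 scores of the members ran from 2.15 to 209 with a median of 24.6, and the Pitx1 scores from 5.92 to 146 with a median of 25.5. Both maxima lay nearer to Zfp703, the Tbx5 score of 209 at position 26673259 (509 kb from Thap1 and 304 kb from Zfp703) and the Pitx1 score of 146 at the next member, position 26677786. These 2 sites belong to a run of 4 members within 33.0 kb.

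Epha4, a receptor that guides motor axons in the limb, bounds a desert that held 13 members among 22 Tbx5 and 101 Pitx1 summits, with Slc4a3, an anion exchanger gene, on the other flank. Efnb2, which encodes an ephrin ligand, bounds the desert that starts at Slc10a2, a bile acid transporter gene, with 11 members in 3312 kb. In that long desert the Tbx5 scores ran from 5.81 to 198 and the Pitx1 scores from 5.92 to 175, and the first member lay 3134 kb from Efnb2. The deserts between Gm40892, a predicted gene, and Flrt2, an adhesion protein gene, and between Plpp3, a lipid phosphatase gene, and Usp24, a deubiquitinase gene, also held 11 each. The Tbx5 summits were shared in 11 of 15 cases in the desert of Plpp3 and in 11 of 23 in that of Flrt2.

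The remaining deserts of the first 15 held 8 or 9 members. With 9 came Dph6 to BC052040, Ttll7 to Adgrl2, a latrophilin gene, and Tbx15 to Spag17. With 8 came Mki67 to Mgmt, Eno1b to Dtwd2, Fbxo8 to Hand2, Fat4 to Intu, both of which act in planar cell polarity, and Frg1 to Triml1. Veph1 to Shox2, Tut7 to Gas1 and Bcl11a to Fancl also held 8 and came after these because they held fewer Tbx5 summits. Of the first 15, 4 have a gene of the limb lists on a flank, namely Epha4, Efnb2, Tbx15 and Hand2.

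T-box genes of limb mesenchyme were among the genes beside the fullest and densest deserts. Between Tbx15 and Spag17, a gene of the ciliary axoneme (chromosome 3, 99354261 to 99885416), all 9 Tbx5 summits were shared, and these 9 are 64.3% of the 14 Pitx1 summits there. In map order, their Tbx5 scores were 6.40, 83.9, 8.29, 3.60, 43.7, 104, 406, 189 and 29.99. The partners' Pitx1 scores, in the same order, were 3.83, 121, 53.4, 7.07, 46.2, 127, 172, 26.4 and 14.4. The site with the highest score of each factor is the same one, at position 99666221, 312 kb from Tbx15 and 219 kb from Spag17.

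Tbx18 had members on both sides, 12 in all. Between Cep162 and Tbx18 (chromosome 9, 87255537 to 87702799), 7 of 14 Tbx5 summits were shared, with Tbx5 scores of 5.23 to 65.2 and Pitx1 scores of 20.5 to 311. Between Tbx18 and Nt5e, which encodes a cell-surface nucleotidase, 5 of 8 were shared, with Tbx5 scores of 27.2 to 221 and Pitx1 scores of 19.7 to 200.2. The higher Tbx5 scores thus lay on the Nt5e side and the highest Pitx1 score on the Cep162 side.

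**Figure D2:**
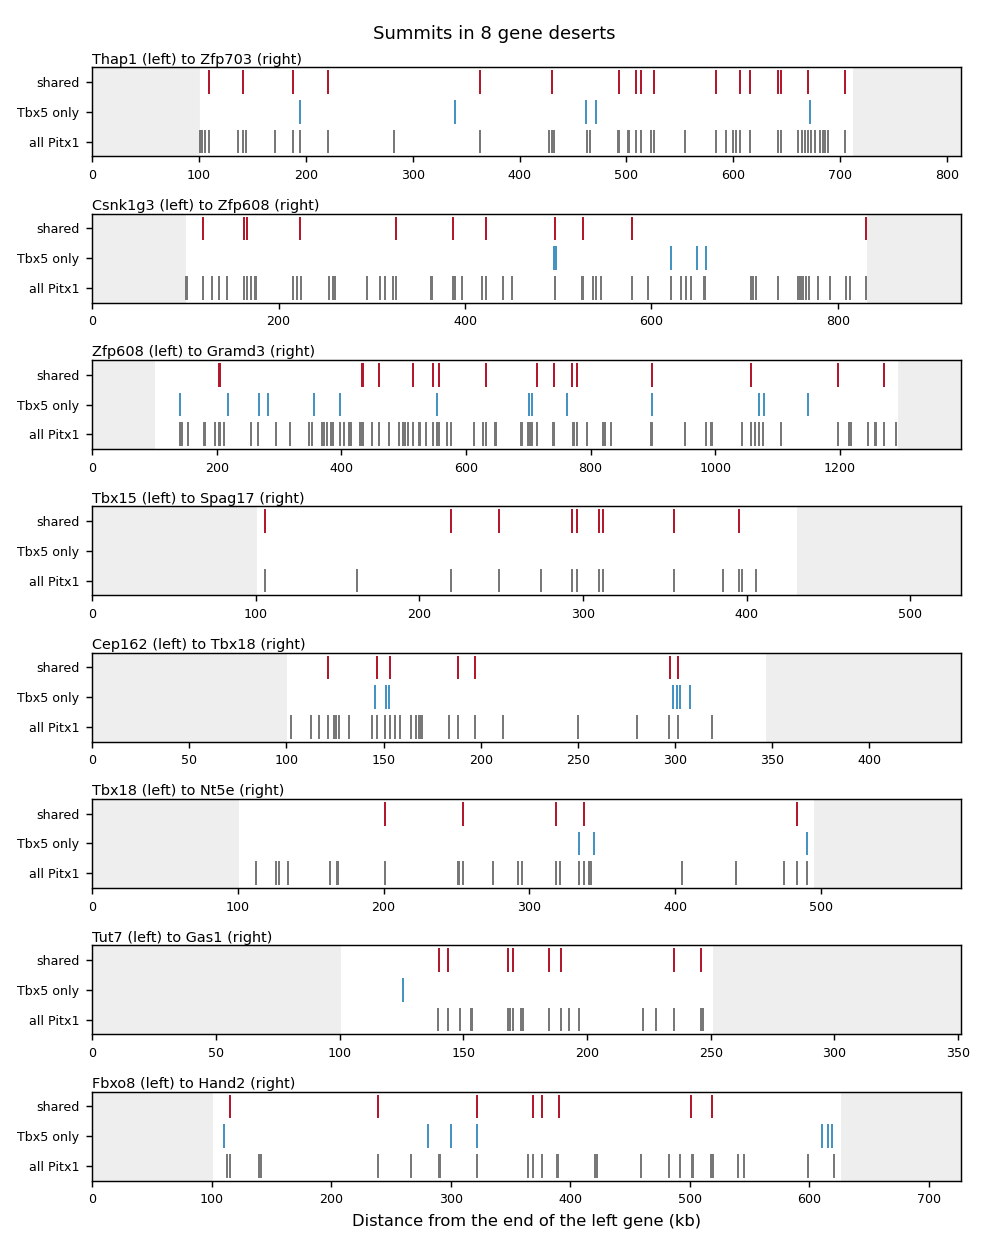
Each row is a desert, drawn from the end of its left gene to the start of its right gene in kb, with the 100 kb next to each gene shaded and not counted. Ticks mark shared Tbx5 summits, Tbx5 summits with no Pitx1 summit within 200 bp, and all Pitx1 summits. The row of Tbx15 to Spag17 has 9 shared ticks and no Tbx5-only tick, and the row of Zfp608 to Gramd3 has 17 shared ticks spread along its length. The 8 deserts were picked after their values were seen.

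Density picked out shorter deserts. Over all deserts there were 1.299 members per Mb. Between Tut7, a gene of RNA uridylation, and Gas1, which encodes a co-receptor of hedgehog signalling, 8 members lay in 151 kb of desert, or 52.9 per Mb. Their Tbx5 scores in map order were 4.13, 7.02, 8.29, 10.3, 92.3, 44.7, 14.7 and 23.7, and the Pitx1 scores 18.1, 7.07, 24.7, 57.6, 18.9, 7.67, 17.4 and 63.0. The other dense deserts were Gm30733 to Prex1 (4 members, 50.2 per Mb), Mycn to Ddx1 (3, 38.7 per Mb), Cep162 to Tbx18 (28.3 per Mb) and Thap1 to Zfp703 (27.7 per Mb). Short deserts need few members to reach a high density, and 3 members was the least for this ranking.

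Within deserts, 232 members (22.7%) lay within 20 kb of another member, in 107 runs, of which 15 had 3 or more members. The like count for other desert Tbx5 summits was not made, so this one does not set the members apart. The tightest run of 4 was the one between Tbx15 and Spag17, in 18.7 kb, and it holds the site with a Tbx5 score of 406. Runs of 4 were also found between Tut7 and Gas1, in 21.5 kb, and between Thap1 and Zfp703. Between Mterf1b and Fzd1, a Wnt receptor gene, 3 members lay within 3.60 kb with Tbx5 scores of 17.02, 35.7 and 55.3 and Pitx1 scores of 20.5, 6.49 and 22.99. Between Arrdc4 and Nr2f2, a nuclear receptor gene, 3 members lay within 13.2 kb with Tbx5 scores of 17.8, 28.2 and 12.4 and Pitx1 scores of 84.6, 51.3 and 8.28.

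The genes on the flanks were compared with 7 lists, of limb transcription factors, limb signalling, cartilage and bone, muscle, nerve and glia, endothelium and blood, and ectoderm and apical ridge. Of the 1021, 320 or 31.3% had a gene of at least 1 list on a flank, against 24.3% of the 1334 desert Tbx5 summits without Pitx1 and 26.6% of all desert Pitx1 summits. Here and below, without Pitx1 means that no Pitx1 summit lay within 200 bp. Deserts beside a listed gene are 11% of the deserts and 12.3% of the desert length. Transcription factors of the limb list stood beside 170 members (16.7%), against 13.0% of the Tbx5 summits without Pitx1 and 5.13% of the desert length. Limb signalling genes stood beside 106 members (10.4%), against 7.42% and 4.08%. A broader set, chosen by gene symbol to cover families of developmental transcription factors, stood beside 259 members (25.4%), against 22.2% and 11.4%. For cartilage and bone the shares were 2.55% of the members and 1.72% of the Tbx5 summits without Pitx1. They were 0.881% and 0.525% for muscle, and 0.294% and 0.225% for ectoderm and apical ridge. Endothelium and blood (0.686% against 1.35%) and nerve and glia (0.588% against 0.750%) went the other way.

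Counted by gene, 47 of the 68 limb transcription factor genes that border a desert had a member in it, and 29 of the 47 signalling genes, against 794 of all 2811 bordering genes (28.2%). For cartilage and bone the count was 8 of 15, for nerve and glia 4 of 8, for muscle 2 of 6, for endothelium and blood 2 of 6 and for ectoderm and apical ridge 1 of 5. The counts do not take the length of the deserts into account. They were not tested, since the lists were chosen with earlier results of these data known.

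Of the 133 deserts with 3 or more members, 50 had a listed gene on a flank, 37.6% against 11% of all deserts. The 133 are also longer, with a median of 728 kb against 219 kb for all deserts, and length was not taken into account. Limb transcription factors bordered 26 of the 50. Fbxo8 to Hand2, a gene of the posterior limb bud, held 8 members of 15 Tbx5 summits, of which the strongest, at position 56962737 of chromosome 8, lay midway, 369 kb from Fbxo8 and 358 kb from Hand2, with a Tbx5 score of 129 and a Pitx1 score of 162. Veph1 to Shox2, a gene of the proximal limb skeleton, held 8 of 10, with Tbx5 scores of 5.81 to 93.6 and Pitx1 scores of 11.54 to 113. The desert between Bcl11a and Fancl held 8 of 9. Deserts beside Nr2f1, Irx1, Zfhx3 and Tbx18 held 7 each, and that beside Tshz1 held 6. Deserts with 5 members bordered Nr2f2, Mycn, Ebf1, Cited2 and Tbx18, among others. Those with 3 or 4 bordered Meis1 and Osr1, each on both sides, Sall3, Tcf7l2, Msx2, En1, Tshz3 and the far side of Mycn, and one lay between Irx3 and Irx5.

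Signalling genes bordered 17 of the 50, cartilage and bone genes 4. After Epha4, Efnb2 and Gas1 came Fzd1, Robo1 and Jag1, a Notch ligand gene, with 5 members each. Bmp4, which encodes a bone morphogenetic protein, had 4 on the Ddhd1 side and 3 on the Cdkn3 side. The others bordered Efna5, Spry2, Epha7 on both sides, Spred2, Slit2, Bmp2 and Rspo3, and one lay between Sema3d and Sema3a. Sox9, the master regulator of cartilage, had 7 members of 14 Tbx5 summits on the side of Gm11677 and 4 of 4 on the side of Slc39a11. The Tbx5 scores reached 193 on the first side and 32.8 on the second, while the Pitx1 scores reached 338 and 395. Matn1, a cartilage matrix gene, and Cdh2 bordered 3 each. The remaining deserts bordered Ets1 with 5, and Eya1, Dach1 and Pou3f1 with 3 each.

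Several genes had members on both sides, 66 in all. After Zfp608 came Adgrl2 with 16 members, Gm40892 with 15, Flrt2 with 14, Mctp2 with 13, Tbx18 with 12, and Sox9 and Sox11 with 11 each. The deserts of Tbx5, Tbx3 and the Hoxd cluster were picked after their values were seen. The desert beside Tbx5 held 1 member, with a Tbx5 score of 7.64, and the desert between Med13l and Tbx3 held 1 of 6 Tbx5 summits. The desert between Atp5g3 and Lnpk, on one side of the Hoxd cluster, held 5 members of 7 Tbx5 summits, and that between Mtx2 and Gm50595, on the other, held 4 of 17.

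Members were sparser farther from genes, while the shared share of Tbx5 summits had overlapping intervals in the 4 distance classes of the deserts. Between 100 and 200 kb from the nearest protein-coding gene there were 1.69 members per Mb of desert, between 200 and 500 kb 1.48, between 500 and 1000 kb 0.724 and beyond 1000 kb 0.500. Desert Tbx5 summits without Pitx1 were spread much alike, so the thinning is not particular to the members. These classes held 40.3%, 44.8%, 11.4% and 3.62% of the members. They held 40.9%, 41.7%, 12.9% and 4.57% of the Tbx5 summits without Pitx1. The share of Tbx5 summits with a Pitx1 partner was 43.0% (39.8 to 46.2), 45.1% (42.0 to 48.2), 40.3% (34.6 to 46.2) and 37.8% (28.2 to 48.1) in the same classes. The nearest gene lay a median of 237 kb from a member, against 239 kb from a desert Tbx5 summit without Pitx1. The farthest members were 2249 kb from any gene at most, and 37 lay over 1000 kb away. Deserts were free of protein-coding genes only: 151 of the 1021 members (14.8%) lay over 100 kb from any annotated gene, non-coding genes and pseudogenes included. Of all Tbx5 summits that far from any annotated gene, 39.2% were shared, against 43.4% of all desert Tbx5 summits. The count thus does not set the members apart, and the difference was not tested.

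**Figure D3:**
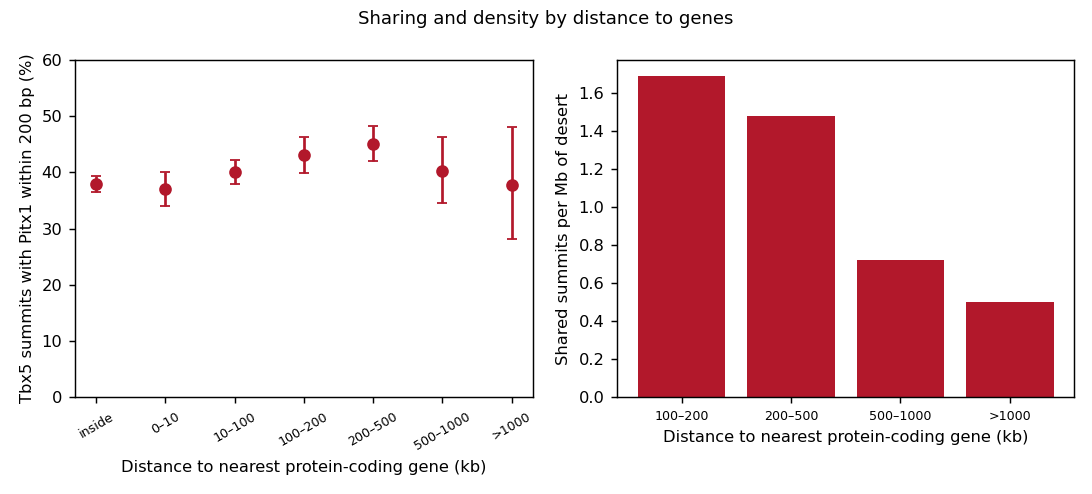
Left, the percentage of Tbx5 summits with a Pitx1 summit within 200 bp by distance to the nearest protein-coding gene in kb, with exact 95% intervals that cover counting only. Right, shared summits per Mb of desert in the classes over 100 kb. The percentage stays between 37.0% and 45.1% in all classes, while the density is 0.500 per Mb beyond 1000 kb, against 1.69 per Mb at 100 to 200 kb.

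The scores of the members were higher than those of desert summits with no summit of the other factor within 200 bp. The median Tbx5 score was 12.4 (quartiles 6.40 and 29.99) in the members and 7.02 (4.67 and 14.5) in desert Tbx5 summits without Pitx1. The median Pitx1 score was 20.5 (7.67 and 48.2) in the members' partners and 7.07 (4.32 and 15.8) in the 9132 desert Pitx1 summits without Tbx5. Shared sites near or in genes were close to the members, with a median Tbx5 score of 11.002 (5.81 and 27.2) and a median Pitx1 score of 16.6 (6.49 and 40.2). Of the members, 167 (16.4%) were among the best 10% of the Tbx5 list by score, ties included, against 6.52% of desert Tbx5 summits without Pitx1. For Pitx1 the counts were 338 partners (33.1%), against 11.1% of the desert Pitx1 summits without Tbx5. The lists hold many equal scores, most of all at the low end.

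**Figure D4:**
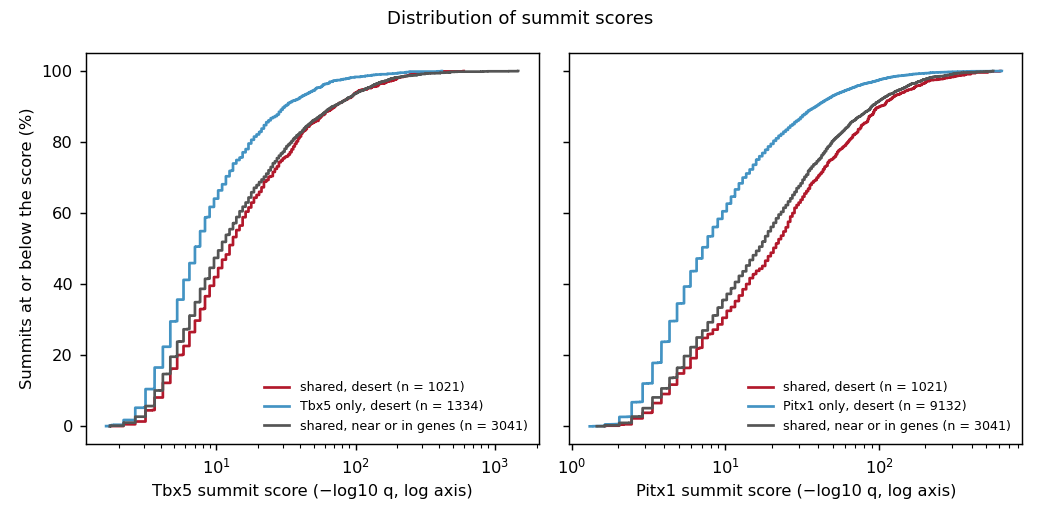
The vertical axis is the percentage of summits at or below a score, and the horizontal axis the −log10 q on a log axis, for Tbx5 (left) and Pitx1 (right). Shared desert summits lie to the right of desert summits with none of the other factor within 200 bp. The medians are 12.4 against 7.02 for Tbx5 and 20.5 against 7.07 for Pitx1. Shared summits near or in genes follow the desert ones closely.

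The share of desert Tbx5 summits with a Pitx1 partner was higher in classes of higher Tbx5 score. In 5 classes of the Tbx5 list from the lowest to the highest scores it was 29.1%, 32.0%, 40.9%, 49.5% and 62.1% in the deserts. Once a site was shared, the scores went together only weakly. The Spearman correlation across the 1021 sites was 0.116, which is a description, since sites are not replicates and each list has its own depth. Of the members, 177 were in the top class of both lists, and 10 in the lowest of both. The classes differ in size: 308 members were in the top Tbx5 class and 129 in the lowest. For the partners, 533 were in the top Pitx1 class and 69 in the lowest. The percentage of members whose partner was in the highest of 5 Pitx1 classes was 49.6%, 40%, 52.6%, 53.6% and 57.5% from the lowest to the highest Tbx5 class.

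The best-ranked site in both lists lay between Epha6 and Nsun3 at position 62469026 of chromosome 16, 1858 kb from Epha6 and 263 kb from Nsun3. Its Tbx5 score of 599 ranked 7 in the whole Tbx5 list and its Pitx1 score of 397 ranked 45 in the whole Pitx1 list, with the summits 14 bp apart. Next came a site between Dph6 and BC052040 (position 115392225 of chromosome 2, Tbx5 score 166, Pitx1 score 290) and one between Il7 and Stmn2 (position 7943862 of chromosome 3, 145 and 204). The site of Gm31344 between Tnp1 and Tns1, whose sequence is given above, was the fourth, and one between Runx1, a bone and blood transcription factor gene, and Setd4 (242 and 190) the fifth. The others of the first 10 lay between Gm11677 and Sox9 (97.3 and 338), Tbx18 and Nt5e (94.8 and 200.2), Tbx15 and Spag17 (406 and 172), Fbxo8 and Hand2 (129 and 162) and between Slc10a2 and Efnb2 (79.1 and 175), where both summits fell on the same base.

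Some other sites were strong mainly for a single factor, although 177 members were in the top score class of both lists. The second highest Tbx5 score among members, 411, lay 102 kb from Kctd1 with a Pitx1 score of 11.54. Between Itga1 and Isl1, a gene of hindlimb initiation, a Tbx5 summit scored 397 at position 115801837 of chromosome 13, 496 kb from Isl1, and its Pitx1 partner 6 bp away scored 4.32. The remaining site of the 5 highest lay between Fat3 and Chordc1 (356 and 111). It ranked 30 in the Tbx5 list and 1020 in the Pitx1 list, and so was high in both. On the Pitx1 side, the highest partner score of 614, rank 4 in that list, lay 129 kb from Ebf1, a transcription factor gene, with a Tbx5 score of 15.4. Other sites with high Pitx1 scores lay between Rbfox1 and Tmem114 (Tbx5 22.0, Pitx1 534), between Megf9 and Gm11232 (28.2 and 510) and between Tle3 and Rplp1 (7.02 and 426).

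**Figure D5:**
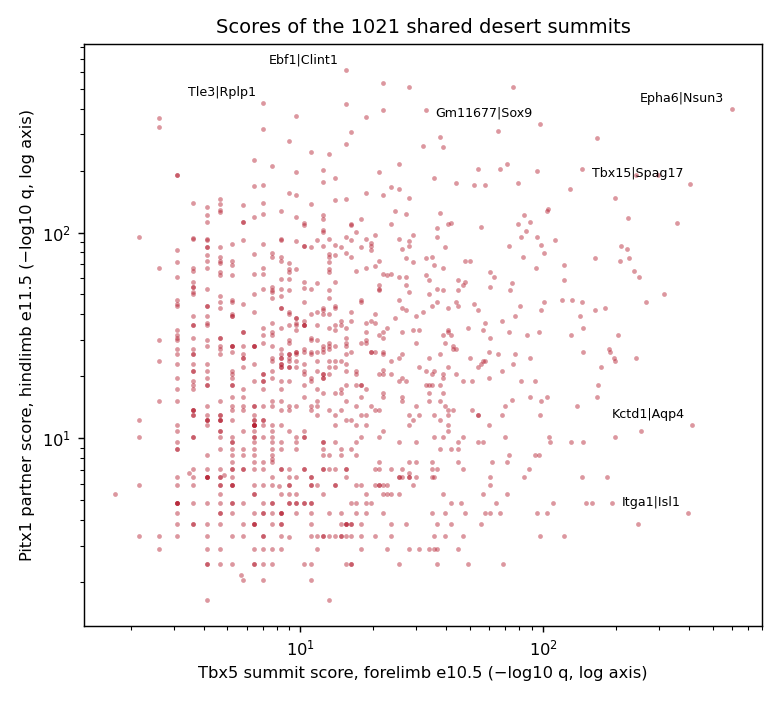
Each point is 1 of the 1021 shared desert summits, with the Tbx5 score in the forelimb on the horizontal axis and the score of its Pitx1 partner in the hindlimb on the vertical axis, both −log10 q on log axes. Labels name the flanking genes of 7 of the sites described. The cloud has little slope (Spearman 0.116), with Epha6 to Nsun3 high on both axes, Itga1 to Isl1 high for Tbx5 and Ebf1 to Clint1 high for Pitx1.

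A second deposited Pitx1 list keeps 17783 of the 54941 summits (32.4%) by a rule that the labels do not state. It keeps 644 of the members' partners (63.1%), against 36% of the desert Pitx1 summits without Tbx5. The second list favours high scores, so the comparison was also made within 5 classes of the Pitx1 score. From the lowest to the highest class it kept 4.35%, 15.4%, 24.0%, 47.7% and 94.0% of the partners, against 5.85%, 11.4%, 21.6%, 45.2% and 89.0% of the desert Pitx1 summits without Tbx5. Within a class the difference was 5.04 percentage points at most.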

How the data were processed

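Chromatin immunoprecipitation of Tbx5 and Pitx1 was deposited as lists of peak summits, in mm10 coordinates. The submitters' processing notes name MACS2 2.1.1.20160309, HOMER, Bowtie2 2.2.6 and Bowtie 1.1.2, with no role or order. The deposited score was taken for a −log10 q-value, since the peak names contain macs2 and the lowest scores (1.42 for Tbx5, 1.31 for Pitx1) lie above 1.30, the −log10 of 0.05. The Tbx5 peak names carry the mark rep2, which the labels do not explain. A further deposited score and a pair of distances in the second Pitx1 list are not explained either and were not used. Peak numbers are missing from the deposited lists (60.4% present for Tbx5, 77.8% for Pitx1). Neither the labels nor the lists state the control, any pooling or any later filter.

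Distances were measured to the bodies of 21887 protein-coding genes in RefSeq's annotation of GRCm38.p6. Assembly gaps were not removed from desert lengths, and predicted genes bound deserts like any other gene. The code (Python 3.11.15, pandas 2.3.3, scipy 1.17.1) was tested on simulated data. With 1 sample per factor and sites chosen by their calls, no test was run. The sites and gene lists were chosen with earlier results of these data known. Deserts are named by a fixed rule (the 15 with most members, the 5 densest with at least 3, and those with at least 3 beside a listed gene), and sites likewise (the 10 best by the worse of their ranks, the 5 highest of each score, and those next to the limits). Genes and deserts picked after their values were seen are marked. A site and a desert that the rule names are not reported here. Motif counts at summits were not run, and the shorter motif words were added after the windows were seen. No summits shared a peak number, so counting 1 summit per peak changes nothing.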

Additional observations from a re-analysis of the deposited data

How the results depend on the processing

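With 1021 sites and a shared share of 43.4% as reported, a partner within 100 bp gave a share of 32.4%, within 500 bp 52.7% and within 1000 bp 57.9%. Deserts over 200 kb from genes left 610 sites, and deserts free of any annotated gene left 151 sites, a share of 39.2% and at most 5 sites in a desert. The second Pitx1 list left 644 sites (27.3%), the Pitx1 list cut to the length of the Tbx5 list 514 sites (21.8%) with at most 11 in a desert, and scores at or above the median of each list 542 sites. These settings remove summits or sequence by construction. Zfp608 to Gramd3 or Thap1 to Zfp703 held most sites in every setting except the one with any annotated gene, where it was Gm40261 to Fzd1. The median Tbx5 score lay between 9.62 and 21.1 and the median Pitx1 score between 19.7 and 47.7 over the 11 settings, and the share with a listed gene on a flank between 29.0% and 33.9% in all but the setting with any annotated gene (8.61%). In that setting any annotated gene, non-coding genes and pseudogenes included, can be the flank. Its share is therefore not comparable with the others. Leaving out predicted genes with Gm symbols, chosen after seeing the data, gave 1057 sites. No paired analysis was possible because each factor has 1 sample and no result comes from a test. Read depth is unknown, so weak sites of either list may be missing.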

Other observations

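Some shared desert sites overlapped long non-coding RNA genes, which are not counted in the definition of a desert. Of the 1021, 208 (20.4%) lay inside an annotated long non-coding RNA gene, against 18.6% of the 1334 desert Tbx5 summits without Pitx1, 19.1% of desert Pitx1 summits and 9.29% of the desert length. The differences were not tested.

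The shared share of Tbx5 summits had a wide spread over the deserts. Among 164 deserts with at least 5 Tbx5 summits the median shared share was 44.4% (quartiles 33.3% and 60%). With as few as 5 summits in a desert, counting alone spreads such shares widely, and a spread beyond that was not tested. All Tbx5 summits were shared in 2 of them, Tbx15 to Spag17 with 9 and D3Ertd751e to Pcdh10 with 5, and none in 2 others, Ppp2r3a to Ephb1 with 6 and Prmt6 to Amy2b with 5. Sall1 to Tox3 held 8 Tbx5 and 51 Pitx1 summits but 1 shared site. These deserts were named after their values were seen, and no test was made.

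By chromosome, chromosome 18 held 2.56 members per Mb of desert. Of its 148 desert Tbx5 summits 50% were shared, against 43.4% over all deserts, 50% on chromosome 7 and 52.1% on chromosome 14. The density of all Tbx5 summits was not compared, so the density of members does not set them apart. The sex chromosomes held fewest, with 2 members of 12 desert Tbx5 summits on X and 1 of 5 on Y (0.0211 per Mb). A member on X lay beyond the outermost gene, Asmt, outside the desert lengths counted, so no density is given for X. Assembly gaps were not removed from these lengths.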
